A study of Rattus norvegicus and Bos taurus with 6 samples.

Results

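Genes that take up, store, break down or make monoamines were followed through single-nucleus RNA sequencing of rat and cow fat, to ask which cells around blood vessels hold the transcripts for clearing noradrenaline and serotonin. The 9 genes were chosen by name: the uptake transporters Slc22a3, Slc6a2 and Slc6a4, the vesicular transporters Slc18a1 and Slc18a2, the oxidases Maoa, Maob and Aoc3, and Th, which makes catecholamines. By symbol, in any letter case, 8 of the 9 were found in all 6 libraries, among 38697 genes in the rat Parse files, 25629 in the rat 10x Genomics file and 36075 in the cow file. Aoc3, an amine oxidase of the surface of fat and vessel cells, matched no symbol and was not analysed here.

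The study put rat perivascular adipose tissue (PVAT) beside other fat to see whether nuclei from lipid-rich white depots could be sequenced. All rats were male Dahl SS (SS/HsdMcwiCrl), labelled as normal and with no treatment named, and their depots were PVAT of the thoracic aorta (taPVAT), subscapular brown fat (BAT), mesenteric PVAT (mesPVAT, white) and retroperitoneal white fat (RP). The cow tissue was subcutaneous white fat (WAT) from the flank of a female Holstein in lactation. How many animals went into a library is not given in the sources used here. Each tissue gave 1 library on the Parse platform, which barcodes fixed nuclei, and mesPVAT gave 1 more on the 10x Genomics droplet platform, from another batch with its own nuclei isolation and a sort on DAPI, so no group had a replicate.

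The libraries held 2708 nuclei for taPVAT, 2699 for BAT, 3028 for mesPVAT, 2805 for RP, 5887 for mesPVAT by 10x Genomics and 2297 for cow WAT, and no barcode was shared between libraries of a platform and species. Median transcripts (UMIs) per nucleus were 1246 and 1706 in the brown depots, 346 and 213 in the libraries labelled mesPVAT and RP, 161 in the 10x Genomics library and 3530 in cow WAT. The libraries labelled mesPVAT and RP run in the opposite order of depth to the one the study gives for these tissues, so they are called by their labels, and no comparison of perivascular with non-perivascular white fat was tested. Ucp1, the uncoupling protein of brown fat, stood at 1782 and 2072 CPM (the gene's UMIs in every 1000000 of its library) in taPVAT and BAT, 63.4 and 89.9 in the white Parse libraries, and 0.808 in the 10x Genomics library.

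Noradrenaline and serotonin end their action by being carried into cells. SLC6A2 and SLC6A4 are the high-affinity carriers of sympathetic nerve endings and of serotonin-handling cells such as platelets and some endothelium, whereas SLC22A3, organic cation transporter 3, is a low-affinity, high-capacity carrier outside nerves. Inside a cell the amine is either packed into vesicles by SLC18A1 or SLC18A2 or oxidised on the outer mitochondrial membrane by the monoamine oxidases, of which MAOA prefers serotonin and noradrenaline and MAOB prefers phenylethylamine. Tyrosine hydroxylase, encoded by Th, is the rate-limiting enzyme of catecholamine synthesis. Nerve terminals leave their nuclei in distant ganglia, so nuclei of fat do not hold the transcripts of the nerve itself.

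The 3 members with the most UMIs in rat fat lie in 2 places of the GRCr8 genome. Slc22a3 spans chromosome 1, 50783218 to 50872358, on the plus strand. Maob spans chromosome X, 8490405 to 8594065, on the plus strand, and Maoa follows it on the minus strand at 8615239 to 8681372, their ends 21174 bases apart. Their promoters are shown because these members gave the most UMIs in rat fat. The set lets a reader compare the oxidases with the transporter that stood out in Plin1 nuclei of the brown depots. Each runs from 250 bases before to 50 bases after the RefSeq start, 5′ to 3′ along the gene, at chr1:50782968-50783267, chrX:8681323-8681622 (minus strand) and chrX:8490155-8490454, with GC boxes (GGGCGG, either strand) in capitals.
Slc22a3: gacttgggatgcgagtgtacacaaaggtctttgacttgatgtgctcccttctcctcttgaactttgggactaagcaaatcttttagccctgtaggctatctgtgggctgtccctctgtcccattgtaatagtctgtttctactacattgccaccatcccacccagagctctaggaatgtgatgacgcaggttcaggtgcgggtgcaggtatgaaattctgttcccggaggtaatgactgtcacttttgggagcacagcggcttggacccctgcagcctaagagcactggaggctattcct
Maoa: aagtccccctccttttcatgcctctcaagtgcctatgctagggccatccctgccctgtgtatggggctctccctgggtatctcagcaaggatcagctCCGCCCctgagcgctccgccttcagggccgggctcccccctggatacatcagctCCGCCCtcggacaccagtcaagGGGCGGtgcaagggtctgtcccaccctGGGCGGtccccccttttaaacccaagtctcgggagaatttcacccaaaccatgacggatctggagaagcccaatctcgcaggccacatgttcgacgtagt
Maob: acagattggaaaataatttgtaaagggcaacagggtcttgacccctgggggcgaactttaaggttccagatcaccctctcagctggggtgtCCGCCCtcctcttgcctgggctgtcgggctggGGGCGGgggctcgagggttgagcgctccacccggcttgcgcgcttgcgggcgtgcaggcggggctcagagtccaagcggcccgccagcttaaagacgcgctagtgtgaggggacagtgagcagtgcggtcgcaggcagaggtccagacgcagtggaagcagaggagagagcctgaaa
The Slc22a3 window held no GC box and 5 CpG pairs at 50.7% G and C. The Maoa window held 4 GC boxes and 13 CpG pairs at 61% G and C, and the Maob window 2 GC boxes and 19 CpG pairs at 63%. The nuclear receptor core motif AGGTCA, on either strand, was in none of the 3 windows. Of 33469 rat promoters of this length, 33.1% held a GC box and 16.2% held AGGTCA.

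Slc22a3 gave the most UMIs of the 8 genes in every rat library, and per kilobase of gene it was the highest in taPVAT, BAT and the 10x Genomics library. It gave 1391 UMIs in taPVAT and 1660 in BAT, or 273 CPM (95% Poisson interval 259 to 287) and 263 CPM (250 to 276). The libraries labelled mesPVAT and RP held 68 and 51 UMIs, or 41.0 CPM (31.9 to 52.0) and 60.3 CPM (44.9 to 79.3), and mesPVAT by 10x Genomics held 125 UMIs, or 101 CPM (84.1 to 120). Cow WAT held 311 UMIs of SLC22A3 at 18.5 CPM (16.5 to 20.7). All intervals here cover counting error only, as no group had a second library.

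In Slc22a3 the brown depots lay close together and above every other library. The ratio of taPVAT to BAT was 1.04 (0.966 to 1.12), that of taPVAT to the library labelled mesPVAT 6.64 (5.21 to 8.61), and that of BAT to the library labelled RP 4.35 (3.30 to 5.87). Between platforms, mesPVAT by 10x Genomics was 2.46 (1.82 to 3.36) times as high as the Parse library of that label, and 20.9% of the genes compared were more than 2-fold higher there. In edgeR's quasi-likelihood test of the brown libraries against the white Parse libraries, 2 a side, the log2 fold change of Slc22a3 was 3.56 (SE 0.50, Benjamini-Hochberg adjusted p = 6.971e-07), and 1.076% of genes had a larger one. In sums over whole libraries, more cells of a type and more RNA per cell cannot be told apart. In Plin1 nuclei alone, the brown libraries were again higher in Slc22a3 by edgeR, at 3.73 (SE 0.53, adjusted p = 1.122e-06), where 22.1% of 15261 genes were called higher and 45.9% in either direction, and no other member was called.

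**Figure D1:**
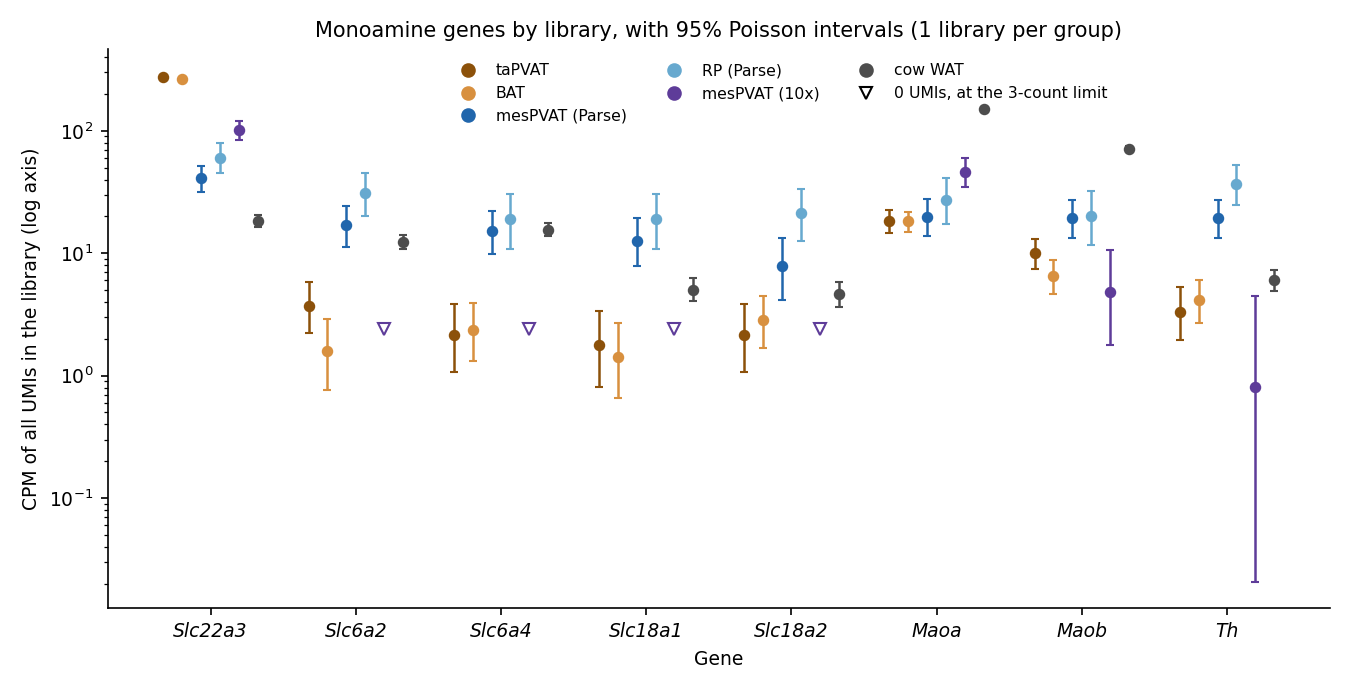
CPM of each gene (log axis) in each of the 6 libraries, as points with 95% Poisson intervals from 1 library per group; open triangles mark genes with no UMI, drawn at the limit of 3 counts. Slc22a3 sat at 273 and 263 CPM in the brown depots, above the other rat libraries, while Maoa and Maob were highest in cow WAT.

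The share of nuclei with a Slc22a3 UMI followed the depth as well as the level. It was 25.9% in taPVAT and 30.4% in BAT, 1.98% and 1.75% in the libraries labelled mesPVAT and RP, 2.02% in the 10x Genomics library and 8.23% in cow WAT. Nuclei of at least 200 UMIs were also thinned to 200 UMIs, and shallower ones were left out. Among the thinned nuclei the shares were 3.93%, 4.17%, 0.829%, 1.06%, 2.00% and 0.414% in the same order. The brown depots stayed highest, and cow WAT became the lowest.

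Nuclei were then placed in classes by 4 anchor genes: Plin1, which coats the lipid droplet of adipocytes, Ptprb of endothelium, Pdgfra of stem and progenitor cells, and Notch3 of mural cells around vessels. A nucleus with UMIs of only 1 anchor joined its class, and others were kept apart as holding several anchors or none. Plin1 nuclei made up 44.8% of nuclei in taPVAT, 53.0% in BAT, 18.4% and 8.56% in the libraries labelled mesPVAT and RP, 11.0% in the 10x Genomics library and 6.53% in cow WAT. Nuclei with no anchor made up 64.4% and 81.9% of the white Parse libraries and 85.7% of the 10x Genomics library. Markers not used for the classes followed them in most libraries: Lipe, the hormone-sensitive lipase of adipocytes, stood at 1242 CPM in Plin1 nuclei of taPVAT against 499 in Ptprb nuclei, and the endothelial adhesion gene Pecam1 at 52.7 against 987. The contrast of Pecam1 was narrower in the library labelled RP, at 116 CPM in Plin1 nuclei and 314 in Ptprb nuclei. Lipe kept its contrast there, at 324 and 105 CPM. It was narrower for Lipe in the library labelled mesPVAT, at 661 CPM in Plin1 nuclei and 416 in Ptprb nuclei. In the 10x Genomics library Lipe stood at 4422 CPM in Plin1 nuclei and 2179 in Notch3 nuclei.

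In the brown depots, Slc22a3 was concentrated in the nuclei with Plin1. In taPVAT it stood at 369 CPM (346 to 393) in Plin1 nuclei, 31.2 (13.5 to 61.5) in Ptprb nuclei, 39.3 (10.7 to 101) in Pdgfra nuclei and 58.0 (15.8 to 149) in Notch3 nuclei. In BAT it stood at 346 CPM (327 to 367) in Plin1 nuclei, 23.1 (11.1 to 42.5) in Ptprb nuclei and 69.0 (33.1 to 127) in Notch3 nuclei, and the 19 Pdgfra nuclei held no Slc22a3 UMI, under a limit of 129 CPM. Plin1 nuclei thus exceeded the other 3 classes together by 9.86 times (6.04 to 17.3) in taPVAT and 10.4 times (6.71 to 17.1) in BAT. The share of Plin1 nuclei with a Slc22a3 UMI was 39.3% in taPVAT against 2.81% of Ptprb nuclei, at median depths of 1726 and 857 UMIs. Among nuclei of at least 200 UMIs, thinned to 200, these shares were 6.05% and 0.772%.

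Counted from the other side, 476 of 702 Slc22a3-positive nuclei of taPVAT (67.8%) and 591 of 821 of BAT (72.0%) were Plin1 nuclei, and 7 and 9 were Ptprb nuclei. Nuclei with several anchors gave 26.1% and 24.0% of the positive nuclei, at 241 and 224 CPM of Slc22a3. Nuclei without an anchor gave 3.99% and 2.19%.

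Within Plin1 nuclei, Slc22a3 was not confined to those in which Ucp1 was seen. In taPVAT it stood at 384 CPM (359 to 411) in 916 Plin1 nuclei with a Ucp1 UMI and 257 CPM (203 to 320) in 296 without, and in BAT at 349 (329 to 371) in 1201 and 310 (247 to 384) in 230. The nuclei without Ucp1 were shallower, with medians of 898 and 962 UMIs against 2092 and 2244. In the 10x Genomics library none of 647 Plin1 nuclei held Ucp1, and Slc22a3 stood at 209 CPM (149 to 284) there, from 40 UMIs.

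In the white libraries Slc22a3 rested on few UMIs in each class, and the Plin1 ratios of the platforms had overlapping intervals. In mesPVAT by 10x Genomics, Plin1 nuclei exceeded the other classes in Slc22a3 by 4.02 times (1.28 to 20.3), with 40 UMIs in Plin1 nuclei and 1 in each other class. In the Parse library labelled mesPVAT, Slc22a3 stood at 30.8 CPM (15.9 to 53.9) in Plin1 nuclei and 49.7 (21.5 to 98.0) in Ptprb nuclei, and the ratio of Plin1 nuclei to the other classes was 0.854 (0.321 to 2.41). In the library labelled RP it was 69.5 CPM (25.5 to 151) in Plin1 nuclei, 52.4 (10.8 to 153) in Ptprb nuclei and 109 (29.6 to 278) in Pdgfra nuclei, a ratio of 1.02 (0.290 to 3.34). In the Parse white libraries the intervals of the classes overlapped throughout, and 53.3% and 69.4% of Slc22a3-positive nuclei had no anchor. In the Parse knee plots of rat mesPVAT and RP fat the paper found no clear inflection point. It took this as a sign that true nuclei were difficult to separate from background RNA. For mesPVAT on the 10x Genomics platform it described moderate inflection points. The part of such background in these class values was not tested. In the 10x Genomics library 36 of 119 Slc22a3-positive nuclei were Plin1 nuclei, and 85.7% of all nuclei had no anchor.

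**Figure D2:**
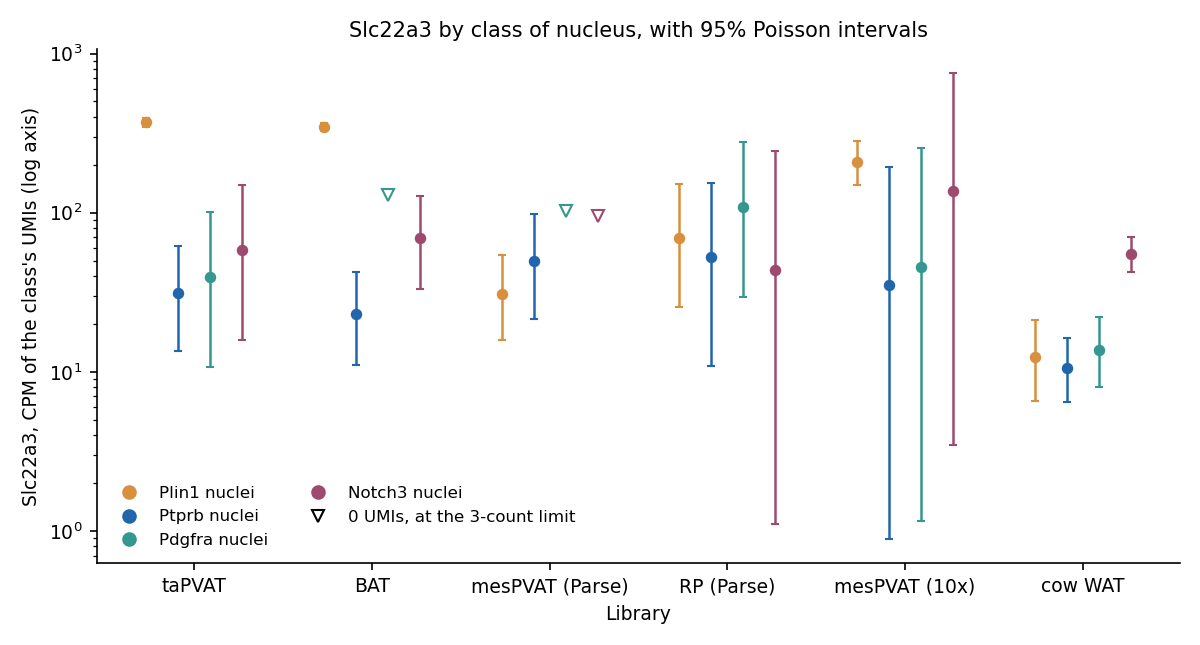
Slc22a3 in CPM (log axis) in nuclei with only Plin1, Ptprb, Pdgfra or Notch3, for each of the 6 libraries, as points with 95% Poisson intervals; open triangles mark classes with no UMI, drawn at the limit of 3 counts. Plin1 nuclei stood apart at 369 and 346 CPM in the brown depots. In mesPVAT by 10x Genomics they were at 209 from 40 UMIs, and each other class held 1 UMI with an interval that overlapped theirs. In cow WAT Notch3 nuclei were highest at 55.0.

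Class differences were tested over the 4 rat Parse libraries with edgeR on UMIs summed by class, each depot serving as a block. The p-values set a class difference against a spread that was pooled over genes. How far the difference of a single gene varied between depots hardly entered its p-value. Slc22a3 was higher in Plin1 nuclei than in the mean of the other classes, with a log2 fold change of 1.93 (SE 0.38, adjusted p = 1.475e-05). It was the only one of the 7 members that passed the minimum of 20 UMIs to be called in this contrast, in which 4.29% of 17727 genes were called higher and 11.8% lower. The median of all genes was -0.35 on the log2 scale, and 6.075% of genes had a larger change than Slc22a3.

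The brown depots carried this call. Fitted within them, the log2 difference of Slc22a3 was 2.90 (SE 0.32, adjusted p = 2.228e-17 by edgeR), where 5.74% of genes were called higher. Within the white Parse libraries it was 0.17 (SE 0.73, adjusted p = 0.9688), where 0.914% were called higher. The difference between these was 2.73 (SE 1.04), which missed the threshold after adjustment by edgeR over all genes (adjusted p = 0.1356), where 4.25% of genes were called in either direction. How far background RNA in the white Parse libraries entered that difference was not tested. Without taPVAT the change was 1.25 (adjusted p = 0.2016), without BAT 1.29 (adjusted p = 0.0888), and without the depot block 1.89 (adjusted p = 0.1104), so the call was lost under each.

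In Ptprb nuclei Slc22a3 differed from the other classes by -0.85 (SE 0.51, adjusted p = 0.5153 by edgeR). Within the brown depots it was lower there by edgeR, at -1.71 (adjusted p = 0.0174), where 2.56% of genes were called lower. The mean set against Ptprb nuclei includes Plin1 nuclei, so the high Slc22a3 of Plin1 nuclei enters this call. In taPVAT, Ptprb nuclei at 31.2 CPM had an interval that overlapped those of Pdgfra nuclei at 39.3 and Notch3 nuclei at 58.0. Across the Ptprb, Pdgfra and Notch3 contrasts, 0 of the 7 members was called in either direction. For Ptprb nuclei edgeR called 4.42% of genes higher and 1.06% lower, for Pdgfra nuclei 1.71% and 0.0846%, and for Notch3 nuclei 2.87% and 0.181%. At an unadjusted p under 0.05, the count of members was 0 for Ptprb, 1 for Pdgfra and 0 for Notch3, beside 13.8%, 8.69% and 9.87% of all genes, so 1 of 7 is near the background. DESeq2's own filter on low counts left Maob, Slc18a2, Slc6a2 and Slc6a4 without an adjusted p in these 3 classes. Maoa and Th had none in Pdgfra and Notch3 nuclei, so DESeq2 could not call these members there. Those it could call were not called, beside 4.69%, 2.12% and 1.64% of all genes for Ptprb, Pdgfra and Notch3.

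Maoa, the oxidase of noradrenaline and serotonin, was low in CPM across rat fat. It gave 18.2 CPM in taPVAT (14.7 to 22.3, 93 UMIs), 18.2 in BAT (15.0 to 21.9, 115 UMIs), 19.9 in the library labelled mesPVAT (13.7 to 28.0, 33 UMIs) and 27.2 in that labelled RP (17.3 to 40.8, 23 UMIs). The 10x Genomics library stood above these at 46.1 (34.9 to 59.7, 57 UMIs), and cow WAT at 150 (144 to 156, 2526 UMIs). The intervals of the 4 rat Parse libraries overlapped.

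By class, Maoa in BAT was highest in Ptprb nuclei, the endothelial class. Ptprb nuclei of BAT held 57.8 CPM of Maoa (37.4 to 85.3, 25 UMIs), against 11.2 (7.95 to 15.4) in Plin1 nuclei, 5.01 times (2.92 to 8.43) the level of the other classes together. In taPVAT the same ratio was 1.43 (0.439 to 3.65), from 5 UMIs in Ptprb nuclei, and in mesPVAT by 10x Genomics 1.65 (0.304 to 5.92), from 3. Over the 4 depots the Ptprb contrast of Maoa was 0.85 (SE 0.54, adjusted p = 0.5508 by edgeR), short of the threshold. Plin1 nuclei of the brown depots did hold Maoa, and in taPVAT 18 of the 34 Maoa-positive Plin1 nuclei also had Slc22a3. The shares of the genes alone would give 13.4 such nuclei, and the part of depth was not tested.

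Maob gave few UMIs in rat fat. It gave 51 UMIs in taPVAT (10.0 CPM), 41 in BAT (6.49 CPM), 32 in the library labelled mesPVAT (19.3 CPM), 17 in that labelled RP (20.1 CPM) and 6 in the 10x Genomics library (4.85 CPM). In the library labelled mesPVAT, 4 of the 32 UMIs of Maob came from a single nucleus of 41374 UMIs. No class of any rat library stood apart, with 0 to 17 UMIs of Maob in any class of a single anchor.

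The nerve-type transporters were rare. Slc6a2, the noradrenaline transporter, gave 19, 10, 28 and 26 UMIs in taPVAT, BAT and the libraries labelled mesPVAT and RP, or 3.73, 1.58, 16.9 and 30.8 CPM. Slc6a4, the serotonin transporter, gave 11, 15, 25 and 16 UMIs, or 2.16, 2.37, 15.1 and 18.9 CPM. In mesPVAT by 10x Genomics both were at 0 UMIs, which allows up to 2.42 CPM.

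Vesicular storage and synthesis genes had the same pattern. Slc18a1 gave 9, 9, 21 and 16 UMIs in the 4 Parse libraries in that order, Slc18a2 11, 18, 13 and 18, and Th 17, 26, 32 and 31. In the library labelled mesPVAT, 4 of the 21 Slc18a1 UMIs came from a single nucleus of 33495 UMIs. There 3 of the 32 Th UMIs came from a nucleus of 41374 UMIs. In mesPVAT by 10x Genomics Slc18a1 and Slc18a2 were at 0 UMIs, and Th gave 1. In CPM all 5 of these genes were higher in each white Parse library than in either brown one, by point estimate.

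The white Parse libraries also held more UMIs of chemosensory receptor genes, and whether fat uses any of these was not tested. Odorant, vomeronasal and taste receptor genes, a reference chosen after the data were seen, took 176 and 158 CPM in taPVAT and BAT, 784 and 1171 in the libraries labelled mesPVAT and RP, and 268 in the 10x Genomics library, and the white Parse libraries exceeded the brown ones by 5.50 times (5.17 to 5.85). Values per kilobase used only receptor genes of known span, 1092 of 1140 in the Parse files. These held 580 of 898 receptor UMIs in taPVAT, 576 of 1001 in BAT, and 1073 of 1299 and 808 of 990 in the libraries labelled mesPVAT and RP. The effect of this uneven loss on the ratios was not tested. Per kilobase of gene span, Slc22a3 exceeded these receptors by 43.9 times (39.8 to 48.4) in taPVAT, 52.7 times (47.9 to 58.1) in BAT and 8.55 times (6.90 to 10.6) in mesPVAT by 10x Genomics. In the libraries labelled mesPVAT and RP the ratio for Slc22a3 was 1.16 (0.893 to 1.48) and 1.15 (0.852 to 1.53). In these white libraries the interval held 1, the level of the receptors. The spans are those of GRCr8 in all 5 rat libraries, although the 10x Genomics reads were aligned to an older build.

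On the same scale the other members lay above, level with or below the receptors, depending on the library. Maoa stood at 3.95 and 4.92 times the receptors per kilobase in taPVAT and BAT, 5.26 in mesPVAT by 10x Genomics, and 0.758 and 0.702 in the libraries labelled mesPVAT and RP. Slc6a2, Slc6a4, Slc18a1 and Slc18a2 lay between 0.558 and 1.44 in all 4 Parse libraries, with 1 within the interval in 15 of 16 cases, the exception being Slc18a2 in the library labelled mesPVAT (0.558, 0.296 to 0.958). Maob lay at 1.38 (1.02 to 1.84) in taPVAT, 1.12 (0.795 to 1.54) in BAT, and below the receptors at 0.469 (0.319 to 0.666) and 0.331 (0.192 to 0.533) in the libraries labelled mesPVAT and RP and 0.353 (0.129 to 0.777) in the 10x Genomics library. Th, whose gene is short at 7.32 kilobases, lay at 6.53, 10.1, 6.65 and 8.55 in the Parse libraries and 0.834 (0.0210 to 4.68) in the 10x Genomics library. The part of this reference level in the white values was not tested further.

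**Figure D3:**
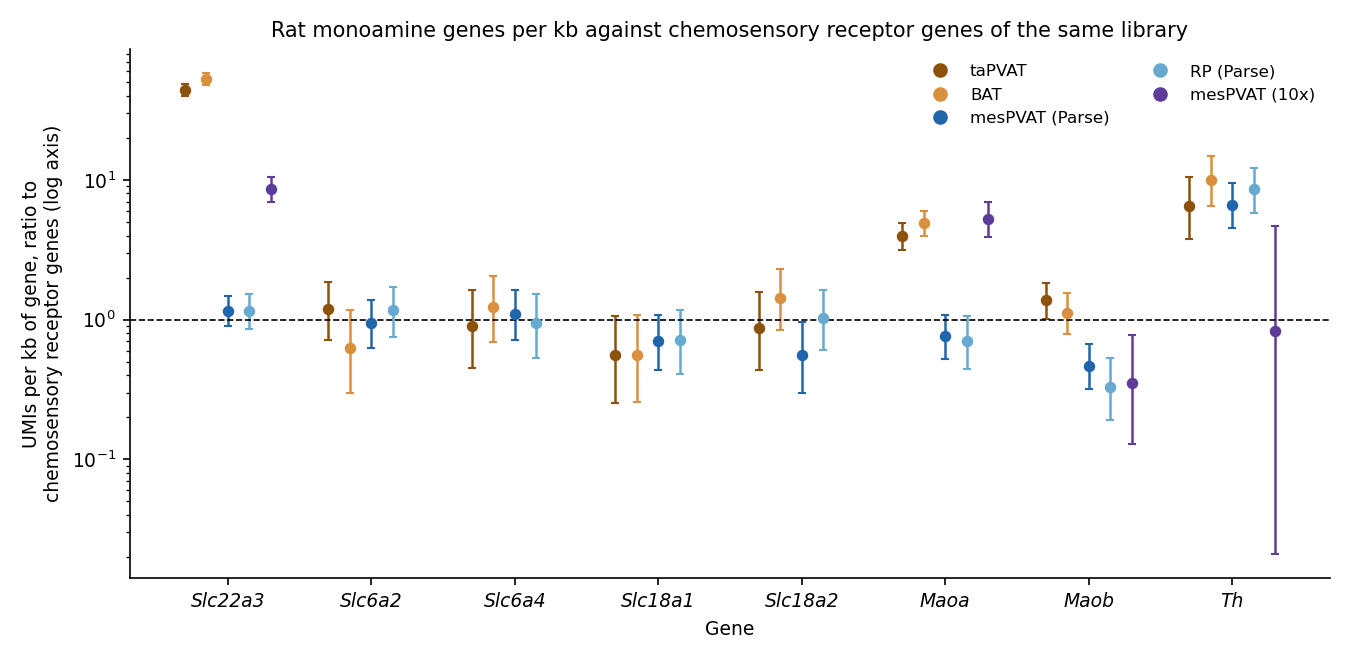
UMIs per kilobase of gene span for each gene, as a ratio to odorant, vomeronasal and taste receptor genes of known span in the same library (log axis), in the 5 rat libraries, with 95% intervals. The dashed line marks a ratio of 1, and genes with no UMI have no point. Slc22a3 lay at 43.9 and 52.7 in the brown depots, 8.55 in mesPVAT by 10x Genomics and 1.16 and 1.15 in the white Parse libraries, and most other transporters lay near 1.

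Brown and white Parse libraries differed in most genes: edgeR called 32.9% of 24063 genes higher and 39.7% lower in brown, 72.6% in all. Against that background, 7 of 8 members were called, Slc22a3 and Maoa higher and Slc18a1, Slc18a2, Slc6a2, Slc6a4 and Th lower in brown, and a count so near the background is no result about these genes. DESeq2 called 4 of the 8, beside 49.3% of all genes. How the libraries were scaled set where the whole distribution sat, since the median of all genes was -0.27 with TMM over all genes, near 0 with DESeq2, -1.41 with scaling by total UMIs and -1.93 with TMM over genes of at least 1000 UMIs. The calls split into 7912 higher and 9559 lower with TMM over all genes, 7265 and 4605 with DESeq2, 2576 and 12902 with scaling by total UMIs, and 1050 and 14535 with the last.

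Slc22a3 was higher in brown under each scaling, at 3.56, 3.84, 2.40 and 1.84 on the log2 scale in that order, and relative to the median of all genes it stayed between 3.77 and 3.84. Maoa was called higher at 0.79 (adjusted p = 0.0321 by edgeR) but turned to -0.36 with scaling by total UMIs and -0.91 with TMM over genes of at least 1000 UMIs, while relative to the median it stayed between 1.02 and 1.06. Maob differed by -0.17 (adjusted p = 0.6696 by edgeR). The fall of Slc18a1, Slc18a2, Slc6a2, Slc6a4 and Th in brown was -2.13, -1.24, -2.01, -1.74 and -1.68 and kept its direction under all 4 scalings. With scaling by total UMIs, the scale of the chemosensory receptor reference, the fall of these genes was -3.27, -2.43, -3.15, -2.89 and -2.86. On that scale the reference was 5.50 times higher in the white libraries, which is the same direction. The part of that reference in the fall was not tested.

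**Figure D4:**
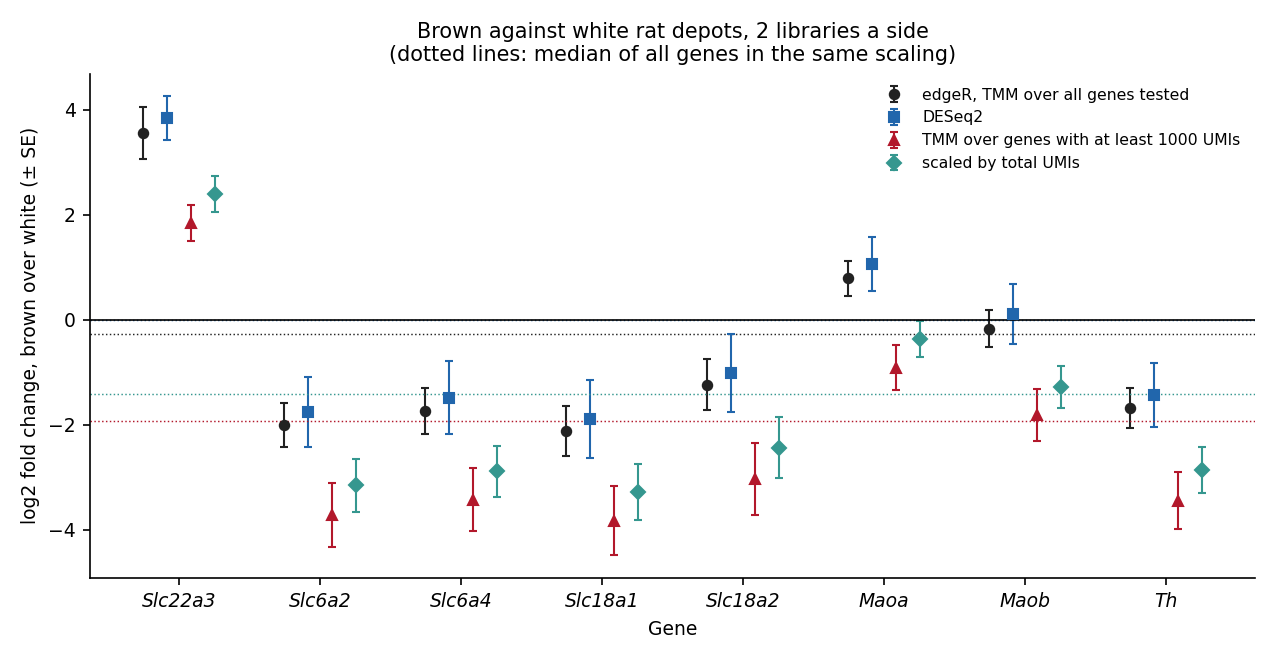
Log2 fold change of each gene between the brown and the white rat Parse libraries, 2 libraries a side, under 4 ways of scaling, with bars of 1 SE; the dotted lines show the median of all genes in the same scaling. Slc22a3 was above 0 under all 4, at 1.84 to 3.84, and Maoa crossed 0 with the scaling.

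Markers of other cell types were counted in the nuclei with Slc6a2, Slc6a4, Slc18a1, Slc18a2 or Th. In the 4 Parse libraries, 0% to 30.8% of nuclei with each gene held a mast cell marker, beside 5.2% to 7.8% of all nuclei. A marker of neurons or chromaffin cells was held by 0% to 31.25%, beside 9.9% to 12.0% of all nuclei. A Schwann cell marker was common in the brown depots, in 44.6% of all nuclei of taPVAT and 50.9% of BAT, and most often it was Mbp. It was held by 10 of 16 Th-positive nuclei in taPVAT and 17 of 24 in BAT, and by 8 of 10 and 11 of 18 nuclei with Slc18a2. For Slc6a2 the counts were 8 of 18 and 7 of 10, and for Slc6a4 6 of 11 and 8 of 15. For Slc18a1 they were 5 of 9 and 2 of 9. Th-positive nuclei had median depths of 2833 and 1675 UMIs there.

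Schwann cell markers were rarer in the libraries labelled mesPVAT and RP, in 19.2% and 10.9% of all nuclei. Markers of neurons or chromaffin cells were not, at 12.0% and 11.8% against 9.97% and 9.93% in taPVAT and BAT. Of 28 Th-positive nuclei in the library labelled RP, 8 held at least 1 marker of neurons or chromaffin cells, against 11.8% of all its nuclei, and these included Syt1 in 6 of them, with Elavl4 in 3 and Snap25 in 2. Of 25 Slc6a2-positive nuclei there, 6 held such a marker, Syt1 in 5. So did 13 of 49 nuclei with Slc22a3, 8 of 23 with Maoa and 5 of 17 with Maob in that library. In the library labelled mesPVAT, 12 of 29 Th-positive nuclei held a Schwann cell marker, against 19.2% of all nuclei, and in 9 of the 12 it was Mbp. Positive nuclei were deeper than most, with medians of 635 UMIs for Th in the library labelled mesPVAT and 417 in that labelled RP, and the part of depth in these shares was not tested. Dbh, Chga and Chgb were at 0 UMIs in the 10x Genomics library. Other markers of neurons or chromaffin cells were held by 0.476% of its nuclei, and a mast cell marker by 1.34%. No nucleus there held 2 markers of neurons or of mast cells, at a median depth of 161 UMIs.

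Th in Pdgfra nuclei stood at 3.94 on the log2 scale (SE 1.25, adjusted p = 0.0765 by edgeR), which missed the threshold, and in Notch3 nuclei at -5.56 (SE 2.88, adjusted p = 0.5159). With the 10x Genomics library added, the Pdgfra difference was called by edgeR (adjusted p = 0.0492), where 2.49% of genes were called higher. That library held 1 Th UMI, and none in a class of a single anchor, so it added no Th UMI to this contrast. Over 13 alternatives the Pdgfra difference of Th ran from 1.04 to 4.49 with adjusted p from 0.0492 to 0.6772, and it rests on 44 UMIs over 16 sums. Of these UMIs, Pdgfra nuclei held 2 in taPVAT, 0 in BAT, 3 in the library labelled mesPVAT and 2 in that labelled RP. Notch3 nuclei, which enter the same contrast, held none.

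In cow WAT the oxidases gave the most UMIs of the 8 genes. MAOA was found in 866 of 2297 nuclei (37.7%), and MAOB in 307 (13.4%) at 71.1 CPM (67.1 to 75.2). By class, MAOA was spread over all 4, at 107 CPM (87.9 to 128) in Plin1 nuclei, 115 (99.8 to 131) in Ptprb nuclei, 186 (163 to 211) in Pdgfra nuclei and 175 (152 to 200) in Notch3 nuclei. The progenitor and mural classes were the higher pair, by 1.43 times (1.22 to 1.67) and 1.31 times (1.11 to 1.54) over the rest.

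MAOB was highest in the Plin1 nuclei of the cow. It stood at 198 CPM (172 to 227) in the 150 Plin1 nuclei, 44.4 (33.5 to 57.8) in Pdgfra nuclei, 23.0 (15.3 to 33.3) in Notch3 nuclei and 6.31 (3.26 to 11.0) in Ptprb nuclei, and Plin1 nuclei exceeded the rest by 9.09 times (7.1 to 11.7). In the Plin1 class 36 nuclei held all 208 MAOB UMIs. The study's own quality limits would keep 130 of the 150 Plin1 nuclei, and 522115 of the 1049409 UMIs of this class. The MAOB level under those limits is not reported here. A single nucleus of 38284 UMIs, whose class is not reported here, held 81 of the 1196 MAOB UMIs of the library, or 6.77%. The intervals do not cover such clumping in few nuclei. Both oxidases were seen in 215 nuclei, 70.0% of those with MAOB, where the shares of the genes alone would give 116. Of MAOB-positive nuclei 54.1% held several anchors, at a median depth of 10314 UMIs for that class.

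Of the cow transporters, SLC22A3 and SLC6A4 stood apart in a class, each outside Plin1 nuclei. SLC22A3 stood at 55.0 CPM (42.7 to 69.9) in Notch3 nuclei, 13.7 in Pdgfra nuclei, 12.4 in Plin1 nuclei and 10.5 in Ptprb nuclei, 4.61 times (3.15 to 6.79) higher in Notch3 nuclei than in the rest. SLC6A4 stood at 39.4 CPM (31.0 to 49.4) in Ptprb nuclei, 15.3 in Pdgfra nuclei, 9.86 in Notch3 nuclei and 1.91 in Plin1 nuclei, 4.19 times (2.74 to 6.51) higher in Ptprb nuclei. Notch3 nuclei held 67 of the 311 SLC22A3 UMIs of the library, and the other 3 classes 50. Ptprb nuclei held 75 of the 262 SLC6A4 UMIs, and the other 3 classes 33. The remaining UMIs lay in nuclei with several anchors or none. SLC6A2 lay between 9.98 and 19.4 CPM in the 4 classes with overlapping intervals, SLC18A1 between 3.23 and 6.83, and SLC18A2 between 2.63 and 8.08. TH lay between 3.29 and 12.4 CPM. It was highest in Plin1 nuclei, from 13 UMIs, at 2.57 times (1.18 to 5.38) the rest. This is 1 cow library, and species, depot, sex and depth cannot be told apart in its difference from the rat.

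**Figure D5:**
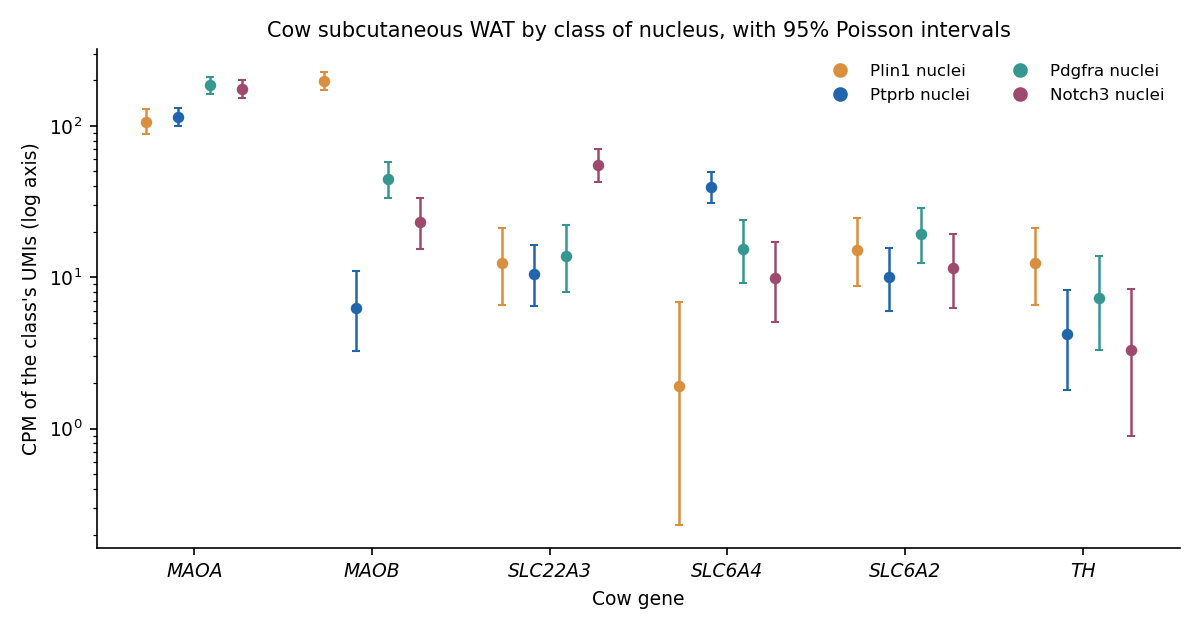
CPM (log axis) of 6 genes in cow subcutaneous WAT, in nuclei with only Plin1, Ptprb, Pdgfra or Notch3, as points with 95% Poisson intervals from 1 library. MAOB was highest in Plin1 nuclei (198 CPM), SLC22A3 in Notch3 nuclei (55.0) and SLC6A4 in Ptprb nuclei (39.4), and MAOA lay between 107 and 186 in all 4.

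With the cow library added to the class fit, edgeR called Maob as well as Slc22a3 higher in Plin1 nuclei, Maob at 2.08, where 6.59% of 13004 genes were called higher. Slc22a3 was then at 1.73 (adjusted p = 0.0084). That addition changed 1 call among the members for Plin1 nuclei.

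Of 27 other genes that carry, make or break down amines, 19 could be tested by class and 24 between brown and white. By class 1 was called, Sult1a1, a sulfotransferase of phenols and amines, lower in Plin1 nuclei at -2.73 (SE 0.53, adjusted p = 1.092e-05 by edgeR), and at an unadjusted p under 0.05 there were 5 for Plin1, 2 for Ptprb and 0 for Pdgfra and Notch3, of 19 each, beside 27.3%, 13.8%, 8.69% and 9.87% of all genes. These counts are no result about the list. Between brown and white, 7 were called higher and 10 lower, near the background of 32.9% and 39.7%, with Tph2, the neuronal tryptophan hydroxylase, at -2.27, Aldh2, the mitochondrial aldehyde dehydrogenase, at 2.26 and Hnmt, which methylates histamine, at -2.17. The median of the list was -0.38 beside -0.27 for all genes.

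The genes most like Slc22a3 over the 16 sums of library and class, among 8938 genes, were a gene without a symbol in the file (Pearson r 0.923), Dhrs11 (0.895) and Slc11a2 (0.887), on log2 of CPM plus 10. For Maoa they were Ttl (0.883), Malt1 (0.875) and Eif2d (0.869), and for Maob Trpv1 (0.857), Klhdc1 (0.832) and Pter (0.792). These are descriptions over sums that share libraries and depth, and for Maoa and Maob they rest on 125 and 43 UMIs.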

How the data were processed

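Nuclei of 5 Parse libraries and 1 10x Genomics library were analysed. The authors aligned Parse reads with split-pipe, to GRCr8 for rat and ARS-UCD1.3 for cow, and 10x Genomics reads with Cell Ranger to Rnor_6.0, and deposited raw UMI counts per gene and nucleus, without normalization. Total UMIs per library ran from 845316 to 16827260. The submitters' processing notes also name FastQC and Scanpy.

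UMIs were summed over all deposited nuclei, doublets included, and scaled to CPM. Intervals are exact Poisson or binomial, at 95%, and cover counting error only. Genes at 0 UMIs were given a limit of 3 counts. For equal depth, shares were also computed after thinning nuclei of at least 200 UMIs to 200. Sums by library and class were tested with edgeR 4.0.16 (quasi-likelihood, Benjamini-Hochberg over all genes with at least 20 UMIs, adjusted p of 0.05) under R 4.3.3, and DESeq2 1.42.0 was an alternative. TMM factors of the class sums came from genes with at least 1000 UMIs, a choice made after simulated data, on which the tests were checked, gave folds that were too large with all genes. The p-values rest on 1 library per depot, whose spread may be technical or biological.

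Gene spans and promoters are RefSeq's, GRCr8. The 8 members found are described whatever their values, with the 3 largest called changes of the pathway list in each test. The members and lists were chosen with earlier results of these data known. Aoc3 was not analysed here. Some genes of the lists are not reported here by name.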

Additional observations from a re-analysis of the deposited data

How the results depend on the processing

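Slc22a3 kept its direction under every alternative run, at 1.25 to 3.08 for Plin1 nuclei over 14 alternatives, 11 of them called, and at 1.84 to 3.94 for brown against white over 11, all called. Without the depot block, Slc22a3 in Plin1 nuclei was at 1.89 and not called, members called for Plin1 nuclei fell to 0, and genes called were 310 for Plin1, 137 for Ptprb, 22 for Pdgfra and 74 for Notch3. The labels give no replicate numbers shared between groups, so depots were the only blocks. Leaving out 1 library at a time gave 716 to 3145 genes for Plin1, 287 to 1170 for Ptprb, 66 to 398 for Pdgfra, 133 to 636 for Notch3 and 12862 to 15437 for brown against white. It gave 1.25 to 2.46 for Slc22a3 in Plin1 nuclei, 3.19 to 3.56 for Slc22a3 in brown, 0 to 1 members called for Plin1 and for Ptprb (Slc22a3 lower without mesPVAT, -1.66, where 1.24% of genes were called lower), and 5 to 6 for brown against white, beside 57.8% to 71.4% of genes. Without taPVAT the genes called were 716 for Plin1, 372 for Ptprb, 66 for Pdgfra and 229 for Notch3, and without BAT 1079, 287, 147 and 133.

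With classes set by marker lists, genes called were 4400 for Plin1, 1639 for Ptprb and 1124 for Pdgfra. DESeq2 called 291 genes for Notch3, and 4 of 8 members for brown against white, where it called 49.3% of all genes. For Plin1, genes called higher and lower were 761 and 2098, against 3303 and 242 with DESeq2, 2910 and 669 with TMM over all genes, and 1041 and 1602 with scaling by total UMIs. TMM over all genes gave 204 genes for Pdgfra. Members called were 1 for Pdgfra with the 10x Genomics library and 2 for Plin1 with the cow library. Among Plin1 nuclei alone, brown against white called 7009 of 15261 genes (45.9%) and 1 member, Slc22a3, Maoa was at -0.047 and Maob at 0.93. Maoa turned to -0.91 with TMM over genes of at least 1000 UMIs and -0.36 with scaling by total UMIs, and Maob to 0.11 with DESeq2 and 0.20 with no filter. The cause was not tested in any of these. Of the levels in CPM, 132 values under the alternatives stayed within counting error and 12 moved, and of the shares of nuclei 70 stayed and 74 moved. Scaling alternatives for TMM and the chemosensory reference were chosen after seeing the data. Depth limits the white Parse and 10x Genomics libraries most, in which no class of a single anchor other than Plin1 held more than 8 UMIs of Slc22a3.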
